A study of Mus musculus with 12 samples.

Results

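The genes of the constitutive proteasome were followed in mouse liver after concanavalin A (abbreviated Con A), which is a jack bean lectin used to provoke T cell driven liver injury. Members were the rows of the count tables whose symbols start with Psma, Psmb, Psmc or Psmd followed by a number, without the 3 immunoproteasome genes Psmb8, Psmb9 and Psmb10. This gave 36 of 23574 genes, of which 16 belong to the core particle (8 alpha and 8 beta subunits) and 20 to the regulatory particle (6 ATPases, 11 non-ATPase subunits and 3 assembly chaperones). The rule uses symbols and no measured value, though the genes were chosen with earlier results of these data known. All mice were wild-type C57BL/6 and all received Con A, so there were no mice without Con A. Liver was taken at 6 h or 12 h, with or without mesenchymal stem cells (MSC), a stromal cell preparation given as treatment, with 3 libraries in each of the 4 groups. Liver is the labelled tissue, although the submitters' design text names hepatocytes as the RNA source. The species, dose and route of the MSC, the age of the mice and whether the 3 libraries of a group came from separate mice were not given, so p-values measure the spread between these libraries, which may be technical. Time after Con A and time of day cannot be told apart.

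The proteasome is the cell's main machine for destroying proteins tagged with ubiquitin. Its barrel-shaped core is built from rings of alpha subunits, which form the gate, and rings of beta subunits, which hold the protease sites. The regulatory particle caps the barrel, where non-ATPase subunits bind ubiquitin and remove it and a ring of ATPases unfolds the protein and feeds it into the core. The complex needs its subunits in fixed ratios, and the transcription factor NRF1, encoded by Nfe2l1, is known for raising many subunit genes together when proteasome activity falls short. Hepatocytes, which make and degrade large amounts of protein, hold much proteasome.

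The libraries held 29688137 to 36131512 counts each. Of the 36 genes, 35 had enough counts to be tested among 14275 genes. Psmb11, the beta subunit of the thymus proteasome, had 0 counts in all 12 libraries, where 3 counts, the limit that a count of 0 allows, would be 0.0657 to 0.119 CPM. CPM is the usual count scaled to library size, here with the TMM correction for library composition. Psma8, the testis alpha subunit, had 2 to 39 counts per library. Both tissue-restricted subunits were thus at or near 0 and the genes of the ordinary proteasome were present. Hepatocyte markers such as albumin were abundant in every library, with a summed level of 8 genes of 80157 to 104358 CPM over the 6 h libraries and 27168 to 47384 CPM over the 12 h libraries. The share of counts on mitochondrially encoded genes was 5.59%, 17.3% and 24.9% in the Con A 12 h libraries and 6.71% to 12.1% in the other libraries.

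The 4 tested members with the largest rise that passed the test between 6 h and 12 h without MSC are shown here by their promoters. Each of them, and also Psmd5, passed as higher at 12 h in both arms of the study. The windows come from RefSeq (GRCm38.p6), run from 250 bases before to 50 bases after the annotated start and are written 5′ to 3′ along the gene: Psmb5 at chr14:54617946-54618245 (minus strand), Psmb6 at chr11:70525107-70525406 (plus strand), Psmb3 at chr11:97703184-97703483 (plus strand) and Psmc5 at chr11:106255935-106256234 (plus strand). Capitals mark matches on either strand to TGACNNNGC, the core of the antioxidant response element that NRF1 and related factors bind, or to CCAAT, the CCAAT box.
Psmb5: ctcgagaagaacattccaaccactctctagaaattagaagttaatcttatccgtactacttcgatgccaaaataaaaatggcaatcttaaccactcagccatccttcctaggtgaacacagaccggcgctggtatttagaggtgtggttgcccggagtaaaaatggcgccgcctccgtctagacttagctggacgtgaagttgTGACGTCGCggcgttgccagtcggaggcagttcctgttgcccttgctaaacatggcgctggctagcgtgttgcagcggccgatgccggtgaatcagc
Psmb6: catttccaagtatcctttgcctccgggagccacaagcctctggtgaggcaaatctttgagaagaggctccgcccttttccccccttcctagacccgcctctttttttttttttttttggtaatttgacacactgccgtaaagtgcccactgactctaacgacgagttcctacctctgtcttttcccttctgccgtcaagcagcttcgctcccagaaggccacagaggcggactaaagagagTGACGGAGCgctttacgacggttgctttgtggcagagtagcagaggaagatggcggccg
Psmb3: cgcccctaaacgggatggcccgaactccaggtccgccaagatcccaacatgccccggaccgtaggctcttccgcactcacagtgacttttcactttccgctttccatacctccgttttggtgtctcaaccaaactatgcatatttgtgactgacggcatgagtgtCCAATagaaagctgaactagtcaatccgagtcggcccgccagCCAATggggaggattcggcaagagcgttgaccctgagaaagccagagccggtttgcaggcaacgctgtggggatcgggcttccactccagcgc
Psmc5: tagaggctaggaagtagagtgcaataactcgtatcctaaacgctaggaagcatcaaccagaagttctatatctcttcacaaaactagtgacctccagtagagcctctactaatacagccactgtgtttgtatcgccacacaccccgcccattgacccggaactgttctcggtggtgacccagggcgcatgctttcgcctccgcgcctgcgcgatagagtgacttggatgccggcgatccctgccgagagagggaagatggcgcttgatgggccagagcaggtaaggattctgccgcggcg
Psmb5 and Psmb6, which carry catalytic sites, each held 1 match to TGACNNNGC, starting 47 and 9 bases before the start. Psmb3 held a pair of CCAAT matches, 85 and 43 bases before the start. Psmc5 held neither. Promoter windows were matched for 29 of the 36 genes, as 31 windows, and TGACNNNGC stood in 5 of them (16.1%), against 12.4% of 32851 windows of the same length over all genes. The other 3 were those of Psmc6, Psmd9 and Psmd12, none of which passed the test in any comparison. CCAAT stood in 12 of the 31 windows (38.7%), against 37.4% of all windows. These letters were therefore about as frequent in the members' windows as in any. No entry was matched for Psma8, Psmb1, Psmb2, Psmb7, Psmc3, Psmd3 and Psmd7.

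Compared per length of merged exons, 31 subunit genes other than the chaperones and the tissue-restricted Psma8 and Psmb11 spanned a 5.03-fold range at 6 h without MSC and an 11.7-fold range at 12 h without MSC, with the 3 assembly chaperones below. In the Con A 6 h livers the highest level was that of Psmb2, a structural beta subunit, at 59.0 ± 1.32 CPM per kb (SD, n = 3), and the lowest, leaving out Psma8 and Psmb11, that of the chaperone Psmd5 at 2.02 ± 0.265 CPM per kb, a 29.2-fold range. At 12 h without MSC the highest was Psmb5, at 113 ± 17.5 CPM per kb. The median over core subunits was 33.7 CPM per kb in the Con A 6 h livers and 41.7 at 12 h, against 21.9 and 19.5 for the regulatory particle without its chaperones. With the longest annotated transcript as length these medians were 58.1 and 60.7, against 29.6 and 34.7. The median of the genes' own log2 changes was -0.04 for the 15 core subunits tested and 0.18 for the 20 regulatory particle genes. The medians of levels thus do not give the direction of change over time. The order was loose. Of 34 pairs of neighbours in it, libraries overlapped for 26 at 6 h without MSC, 22 at 6 h with MSC, 28 at 12 h without MSC and 29 at 12 h with MSC. With the longest annotated transcript as length, the highest gene was Psma4 at 6 h and Psmb4 at 12 h without MSC, so the exact order rests on the length used.

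**Figure D1:**
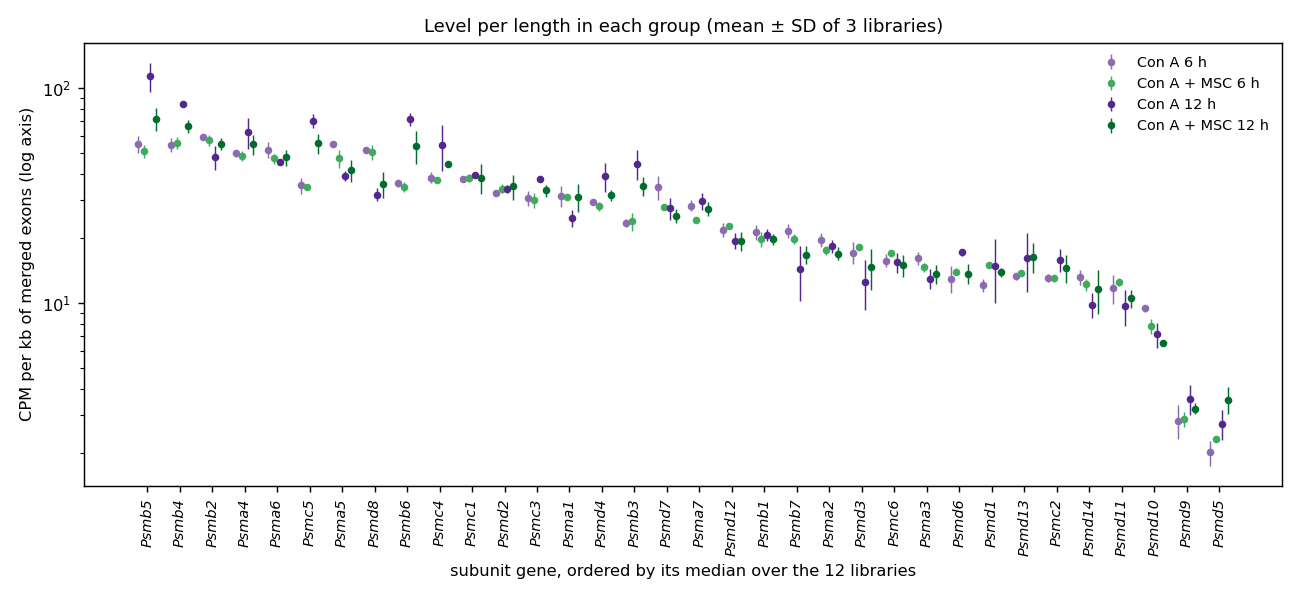
Level of each subunit gene in CPM per kb of merged exons (log axis) in the 4 groups, as mean ± SD of 3 libraries, ordered by the median over the 12 libraries; Psma8 and Psmb11 are left out. The chaperones Psmd10, Psmd9 and Psmd5 lie lowest, and Psmb5 stands highest at 12 h without MSC, at 113 CPM per kb.

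From 6 h to 12 h without MSC the proteasome genes did not move as a block: 9 of the 35 tested rose, where 24.4% of all genes did, and 4 fell, where 24.8% did. The risers were 4 beta subunits, 2 ATPases, 2 non-ATPases and 1 chaperone, with Psmb5, Psmb6 and Psmc5 each near 2-fold, and no alpha subunit passed upward. The falls were Psmd8, Psmb7, Psma5 and Psmd10, each less than 2-fold. In all, 13 members (37.1%) passed, against 49.2% of all genes tested, a share below the background, and their median log2 change was 0.06 against 0.02 over all genes. Because liver was measured in bulk, fewer cells of a type and less RNA per cell cannot be told apart here or in the comparisons that follow.

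Among the beta subunits, 4 of the 7 tested rose, 1 fell and 2 did not pass. Psmb5, which carries the chymotrypsin-like site, stood at 54.3, 47.3 and 46.1 CPM in the Con A 6 h libraries and at 120.1, 94.0 and 91.7 CPM at 12 h. Each 12 h library was far above each 6 h library, and the log2 change was 1.05 ± 0.15 (SE), with an adjusted p of 1.86e-04 by edgeR's quasi-likelihood test. Psmb6, which carries the caspase-like site, went from 69.6, 65.0 and 67.8 CPM to 123, 140.0 and 139 CPM. Its 6 h libraries were tightly grouped and its 12 h libraries all well above them, with a log2 change of 0.99 ± 0.14 and an adjusted p of 1.86e-04. Psmb7, which carries the trypsin-like site, went the other way, from 73.8, 68.7 and 80.3 CPM to 65.0, 44.2 and 38.2 CPM. The groups did not overlap, but the first 12 h library lay close to the 6 h range, and the log2 change was -0.60 ± 0.18 (adjusted p 0.0172). That first library also had the lowest mitochondrial share of the 3, 5.59% against 17.3% and 24.9%. Its TMM factor was 1.26 against 0.982 and 0.911, and its summed hepatocyte markers 27168 CPM against 44863 and 47384 CPM. These traits cannot be told apart in 3 libraries. With mitochondrial share added to the model, the Psmb7 change was -0.41 (adjusted p 0.0371). Without Con A 12 h replicates 2 and 3, Psmb7 had a log2 change of -0.18. The call for Psmb7 ended without Con A 6 h replicate 3 (adjusted p 0.0697), without Con A 12 h replicate 2 (0.0781) and without Con A 12 h replicate 3 (0.0768).

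Structural beta subunits split as well. Psmb3 rose from 54.7, 52.0 and 56.5 CPM to 83.8, 107 and 115 CPM, a log2 change of 0.91 ± 0.15 (adjusted p 4.81e-04). Psmb4 rose from 113, 98.0 and 107 CPM to 165, 168 and 162 CPM, a log2 change of 0.64 ± 0.13 (adjusted p 0.00153). Neither gene's groups overlapped. Psmb1 showed the smallest change of the class, with 105, 89.4 and 99.3 CPM at 6 h and 102, 91.3 and 91.7 CPM at 12 h, ranges that lie on top of each other. Psmb2 did not pass (log2 change -0.31, adjusted p 0.0718).

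Among the 8 alpha subunits, which form the outer rings and the gate, 1 fell and 7 did not pass. Psma5 stood at 75.3, 72.3 and 70.0 CPM at 6 h and at 50.9, 49.4 and 54.5 CPM at 12 h. All 12 h libraries were below all 6 h libraries, with a log2 change of -0.49 ± 0.13 and an adjusted p of 0.00943 (0.0573 without Con A 12 h replicate 2). Psma7 changed least, with 93.1, 83.5 and 85.0 CPM against 87.7, 85.3 and 101 CPM in overlapping groups. The testis subunit Psma8 had the largest fitted change of the class, 1.08 ± 0.74, and did not pass: its libraries held 0.681, 0.0990 and 0.0788 CPM at 6 h and 0.587, 0.689 and 0.555 CPM at 12 h, and 1 of the 6 h libraries lay inside the 12 h range.

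Among the 6 ATPases, 2 rose, none fell and 4 did not pass. Psmc5 had the largest change of the regulatory particle, from 46.9, 53.9 and 46.4 CPM to 90.7, 98.8 and 106 CPM. The groups were far apart, and the log2 change was 1.00 ± 0.13 (adjusted p 1.02e-04). Psmc4 rose by 0.50 ± 0.17 on the log2 scale (adjusted p 0.0267), but its groups overlapped: 77.3, 84.8 and 86.6 CPM at 6 h against 84.2, 134 and 134 CPM at 12 h. Its low 12 h library was the one of low mitochondrial share, which also had the high TMM factor and the low hepatocyte marker sum. With that share added to the model the Psmc4 change was 0.25 and did not pass (adjusted p 0.139), and without replicates 2 and 3 its change was 0.0397 (adjusted p 0.881). Leaving out 1 library gave adjusted p of 0.0662 (Con A 6 h replicate 1), 0.0907 (Con A 12 h replicate 2) and 0.0814 (Con A 12 h replicate 3). Psmc6 changed least, with 55.1, 58.8 and 51.3 CPM against 58.9, 55.3 and 47.9 CPM.

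Among the 11 non-ATPase subunits, 2 rose, 1 fell and 8 did not pass. Psmd8, a subunit of the lid, stood at 155, 156 and 162 CPM at 6 h and at 92.4, 106 and 95.0 CPM at 12 h. The 3 libraries of each time were close together and the groups far apart, with a log2 change of -0.69 ± 0.14 (adjusted p 0.00175). Psmd4, a ubiquitin receptor, rose from 82.1, 84.4 and 81.4 CPM to 89.9, 115 and 122 CPM (log2 change 0.40, adjusted p 0.0305), and the lid subunit Psmd6 rose from 42.2, 33.6 and 33.0 CPM to 47.1, 47.1 and 50.2 CPM (0.41, adjusted p 0.0276). Neither pair of groups overlapped. Both changes were opposite in sign to the class median of -0.17, in a class with 5 changes above 0 and 6 below. With mitochondrial share added to the model, Psmd4 did not pass (0.25, adjusted p 0.122) and Psmd6 did (0.41, adjusted p 0.0442). Without replicates 2 and 3 of Con A 12 h the adjusted p was 0.568 for Psmd4 and 0.158 for Psmd6. Leaving out 1 library ended the call for Psmd4 in 4 cases, with adjusted p of 0.0549 (Con A 6 h replicate 1), 0.0698 (Con A 6 h replicate 3), 0.0799 (Con A 12 h replicate 2) and 0.0898 (Con A 12 h replicate 3). For Psmd6 it did so in 3 cases, with adjusted p of 0.0641 (Con A 6 h replicate 2), 0.0794 (Con A 6 h replicate 3) and 0.055 (Con A 12 h replicate 3). Psmd2, the scaffold that docks ubiquitin receptors, changed least, with 134, 134 and 127 CPM against 137, 143 and 131 CPM. The scaffold subunit Psmd1 had the widest spread of any member in the Con A 12 h group, with 68.1, 120.2 and 136 CPM. This was again the order of the mitochondrial share, and also that of the hepatocyte marker sum.

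The 3 assembly chaperones, which escort ATPases into the ring and leave before the particle is finished, went in different directions. Psmd5 rose from 12.4, 15.8 and 15.6 CPM to 21.5, 21.7 and 16.2 CPM, with the lowest 12 h library just above the highest 6 h library (log2 change 0.44, adjusted p 0.0427). Psmd10, also known as gankyrin, fell from 14.4, 13.8 and 13.5 CPM to 12.1, 9.94 and 9.47 CPM, groups that did not overlap (-0.40, adjusted p 0.0365). Psmd9 did not pass, with 20.7, 24.2 and 16.9 CPM against 26.3, 30.1 and 21.8 CPM. With mitochondrial share added to the model, Psmd10 did not pass (-0.30, adjusted p 0.108). Both calls were lost when single libraries were left out: for Psmd5 without Con A 6 h replicate 1 (adjusted p 0.108), Con A 12 h replicate 1 (0.0752) or Con A 12 h replicate 2 (0.107), and for Psmd10 without any library other than replicate 1 of the 2 groups at 12 h, that is in 10 of 12 cases, with adjusted p of up to 0.144 (Con A 12 h replicate 2).

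**Figure D2:**
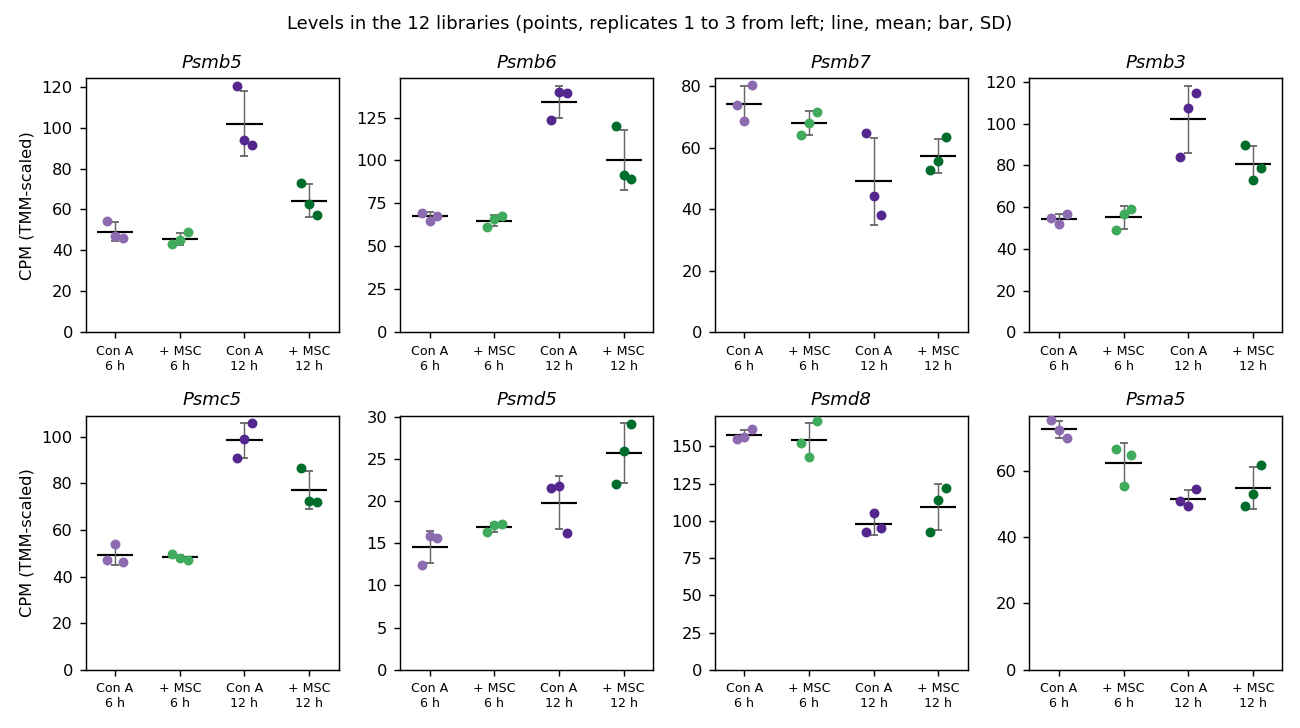
CPM in each of the 12 libraries for 8 subunit genes (points are replicates 1 to 3 from left to right, the line is the mean and the bar the SD; each axis starts at 0). Psmb5, Psmb6, Psmb3 and Psmc5 are higher in every 12 h library than in any 6 h library, Psmd8 is lower in every 12 h library, and Psma5 separates by time without MSC and overlaps with MSC.

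Over all members, 10 had groups that did not overlap in the upward direction and 10 in the downward direction, against 27.4% and 27.3% of all genes. The 5 rises of Psmb3, Psmb4, Psmb5, Psmb6 and Psmc5 were called in each of 20 alternative fits, made of 8 changes of method and each of 12 libraries left out. Libraries with MSC are outside this comparison and act on it only through the shared spread, filter and scaling. The split of the calls rests on scaling. With total counts in place of TMM, which moved the median of all genes by 0.26 on the log2 scale, 13 members were higher and 0 lower, against 9 and 4, and all 4 falls were lost. The same shift applies to the medians given by role. Without Con A 12 h replicate 2 the called members were 6 higher and 1 lower, and without Con A 12 h replicate 1 they were 11 higher and 7 lower. Other counts of falls were 2 without Con A 6 h replicate 3 and 2 without Con A 12 h replicate 3, and without both libraries of high mitochondrial share, a choice made after seeing the data, 6 members were higher and 1 lower.

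Marker levels of cell types moved over the same interval. In the Con A livers, 6 of 8 hepatocyte markers and 5 of 6 Kupffer cell markers fell, as did 4 of 7 sinusoidal endothelial, 5 of 7 neutrophil, 3 of 6 monocyte and macrophage and 5 of 5 erythroid markers, and none of them rose. Of the T and NK cell markers tested 1 of 5 fell and none rose. Of the stellate markers 3 of 7 fell and 1 rose. The summed level of the Kupffer markers was 21.2 to 48.7 CPM at 6 h and 2.26 to 5.84 CPM at 12 h, and that of the endothelial markers was 65.7 to 95.5 and 30.3 to 39.3 CPM. No marker of these lists was at 0 in all libraries. Their part in the subunit changes was not tested.

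From 6 h to 12 h with MSC, 5 members rose and 1 fell, where 20.6% and 20.2% of all genes did, and each had moved the same way without MSC. Psmb5, Psmb6, Psmb3, Psmc5 and Psmd5 were higher at 12 h and Psmd8 was lower. In all 6 the libraries of the 2 times did not overlap. The 6 members (17.1%) stand against 40.7% of all genes, and the members' median log2 change was 0.01 against 0.06 over all genes. No alpha subunit passed.

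With MSC, Psmc5 had the largest called change, from 49.5, 48.1 and 47.1 CPM at 6 h to 86.5, 72.5 and 72.2 CPM at 12 h (log2 change 0.68 ± 0.13, adjusted p 0.00168). Psmb6 rose from 61.4, 66.0 and 67.8 CPM to 120.2, 91.3 and 89.3 CPM (0.62 ± 0.14, adjusted p 0.00449). The first 12 h library was the highest for both genes, and also for Psmb3 and Psmb5. Psmd5 rose from 16.3, 17.2 and 17.3 CPM to 22.0, 25.9 and 29.2 CPM (0.60 ± 0.17, adjusted p 0.0119), and here the first 12 h library was the lowest. Psmb3 rose from 49.0, 56.9 and 59.3 CPM to 89.8, 73.1 and 79.0 CPM (0.55, adjusted p 0.0123), and Psmb5 from 43.0, 45.0 and 48.9 CPM to 72.9, 62.8 and 57.5 CPM (0.50, adjusted p 0.0205). Psmd8 fell from 152, 143 and 167 CPM to 92.3, 114 and 122 CPM (-0.49, adjusted p 0.0147). The calls for Psmb6, Psmc5 and Psmd5 held in each of the 20 alternative fits, where libraries without MSC act only through the shared spread, filter and scaling. Without Con A + MSC 12 h replicate 1 the adjusted p was 0.0504 for Psmb3, 0.0686 for Psmb5 and 0.0636 for Psmd8, leaving 3 members higher and 0 lower. Without replicate 1 of the MSC livers at 6 h it was 0.054 for Psmb3 and 0.062 for Psmb5, leaving 3 members higher. Without replicate 2 of that group it was 0.0548 for Psmb5, and without its replicate 3 it was 0.0724 for Psmd8. With total counts in place of TMM, which moved the median of all genes by 0.54, 21 members were higher and 0 lower, against 5 and 1. In these livers 7 of 8 hepatocyte, 2 of 6 Kupffer, 4 of 7 neutrophil and 5 of 5 erythroid markers fell over the same interval and none of them rose. None of the 5 T and NK cell markers tested passed. Of the stellate markers 4 of 7 rose and 2 fell, and of the sinusoidal endothelial markers 2 of 7 rose and 1 fell. Of the monocyte and macrophage markers 2 of 6 rose and none fell. Their part in the subunit changes was not tested.

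Of the 13 members called without MSC, 6 also passed with MSC and 7 did not: Psmb7, Psma5, Psmb4, Psmc4, Psmd4, Psmd6 and Psmd10. Psmb7 stood at 64.2, 68.2 and 71.8 CPM at 6 h with MSC and at 52.8, 55.6 and 63.7 CPM at 12 h (log2 change -0.25, adjusted p 0.298). Psma5 stood at 66.6, 55.3 and 64.8 CPM and at 49.5, 53.1 and 61.8 CPM (-0.18, adjusted p 0.293), and Psmb4 at 100.0, 110.8 and 114 CPM and at 139.5, 127 and 122 CPM (0.26, adjusted p 0.125). The Psma5 groups overlapped, while those of Psmb7 and Psmb4 did not. Psmc4 had a log2 change of 0.25 with MSC (adjusted p 0.260), Psmd4 of 0.17 (0.340), Psmd6 of -0.03 (0.869) and Psmd10 of -0.26 (0.164). Whether the changes over time differ between the arms is the test of the difference of the MSC effect given further on, which none of the 7 passed.

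**Figure D3:**
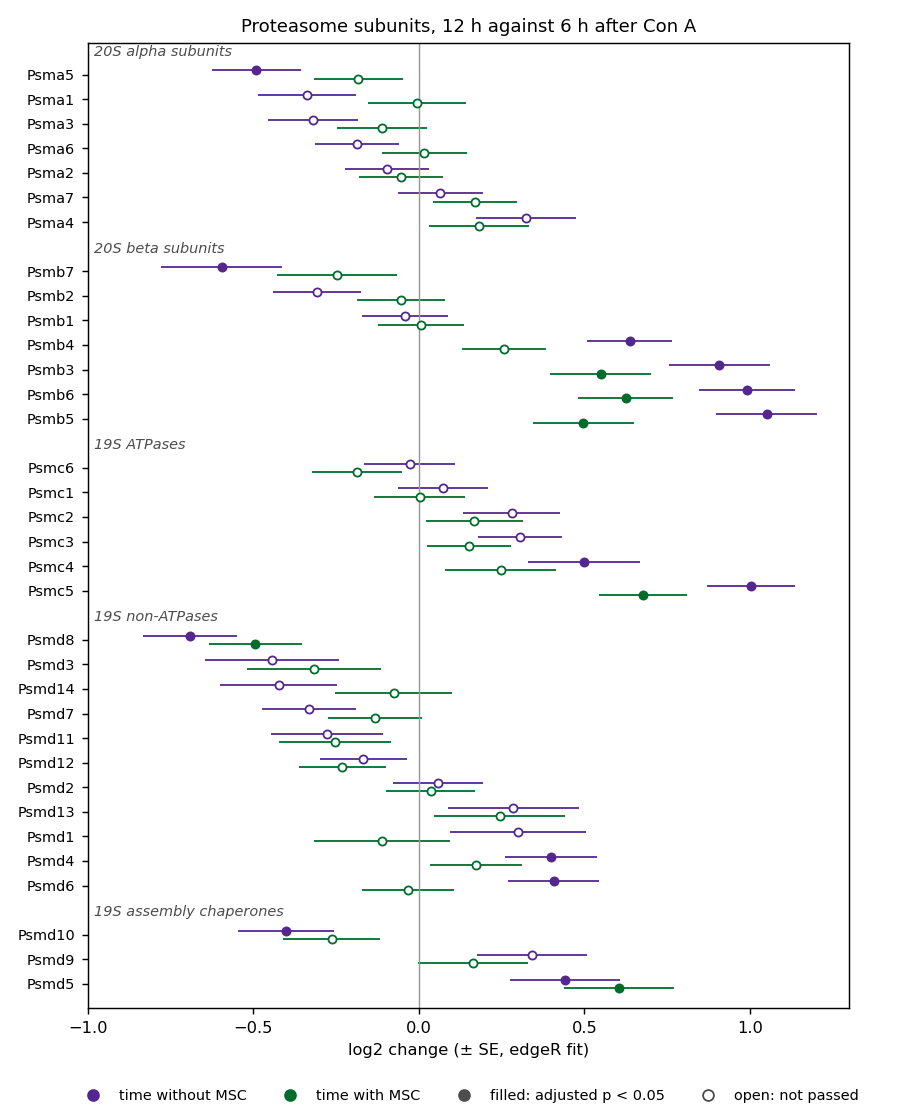
Fitted log2 change from 6 h to 12 h (± SE) of each subunit gene without MSC (purple) and with MSC (green), grouped by role; filled points passed an adjusted p of 0.05 and Psma8 is left out. The beta subunits Psmb3, Psmb4, Psmb5 and Psmb6 and the ATPase Psmc5 stand to the right and Psmb7 and Psmd8 to the left, while the alpha subunits run from -0.49 to 0.32.

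At 6 h no proteasome gene passed between livers with and without MSC: 0 of 35 members were higher, where 0.0210% of all genes were, and 0 were lower, where 0.0771% were, or 0.0981% in either direction. At an unadjusted p under 0.05 there was 1 member, Psmd7, with a log2 change of -0.31 ± 0.14 and an adjusted p of 0.446, and DESeq2 also called 0. Members' changes ran from -0.31 to 0.32, with a median of -0.03 against -0.01 over all genes. For 34 of the 35 genes the 95% interval of the change lay within 2-fold in either direction, the exception being Psma8. For Psmb5 it ran from 0.737-fold to 1.17-fold. Libraries of the 2 groups did not overlap for 3 members in the upward direction and 4 in the downward direction, against 8.22% and 8.34% of all genes.

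At 12 h with MSC, 1 of 35 members was lower than without MSC and 0 were higher, while 1.79% of all genes were lower and 2.29% higher, or 4.08% in either direction. That member was Psmb5, with 120.1, 94.0 and 91.7 CPM in the Con A livers and 72.9, 62.8 and 57.5 CPM in the Con A + MSC livers. Each library with MSC was below each library without, and the log2 change was -0.66 ± 0.15 (adjusted p 0.035), or 1.58-fold lower with a 95% interval of 0.502-fold to 0.794-fold of the level without MSC. The call was lost with total counts in place of TMM (-0.42, adjusted p 0.281) and when only these 2 groups were fitted (adjusted p 0.1). Leaving out 1 library ended it for replicates 1 and 2 without MSC (0.0571 and 0.0728) and for replicates 2 and 3 with MSC (0.125 and 0.164). The same Con A 12 h libraries enter this comparison and the rise of Psmb5 over time without MSC, so these are not separate pieces of evidence.

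The next beta subunits lay in the same direction without passing. Psmb6 had 123, 140.0 and 139 CPM without MSC and 120.2, 91.3 and 89.3 CPM with MSC (log2 change -0.42, adjusted p 0.114), and Psmb4 had 165, 168 and 162 CPM against 139.5, 127 and 122 CPM (-0.35, adjusted p 0.133). The libraries did not overlap for either. Groups that did not overlap were found for 6 members in the downward direction (Psmb5, Psmb6, Psmb4, Psmc5, Psmd6 and Psmc3) and for 1, Psmd5, in the upward direction, against 13.1% and 13.3% of all genes. Psmb7 had 65.0, 44.2 and 38.2 CPM against 52.8, 55.6 and 63.7 CPM, overlapping groups with a log2 change of 0.22 (adjusted p 0.502). By role, the median change was -0.34 for the beta subunits, -0.15 for the ATPases, -0.02 for the alpha subunits and 0.02 for the non-ATPases, beside 0.00 over all genes, and all 6 ATPase changes were below 0, from -0.35 to -0.04. With total counts the median of all genes moved by 0.26 and that of the members from -0.09 to 0.19, so these signs hold only relative to the other genes. DESeq2 called Psmb4 and Psmb6 lower besides Psmb5.

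Some lists of non-parenchymal markers differed in the same comparison. With MSC, 3 of 6 Kupffer cell, 3 of 7 sinusoidal endothelial and 5 of 7 stellate cell markers were higher at 12 h and none lower, while 0 of 8 hepatocyte markers passed. Of the monocyte and macrophage markers 1 of 6 was higher, and 0 of 7 neutrophil, 0 of 5 T and NK cell and 0 of 5 erythroid markers passed. The summed Kupffer level was 2.26 to 5.84 CPM without and 20.7 to 51.0 CPM with MSC, the endothelial level 30.3 to 39.3 and 73.9 to 94.9 CPM, and the stellate level 45.8 to 63.3 and 98.4 to 182 CPM. Their part in the lower Psmb5 level was not tested. With mitochondrial share added to the model, the Psmb5 change was -0.81 (adjusted p 0.0415).

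**Figure D4:**
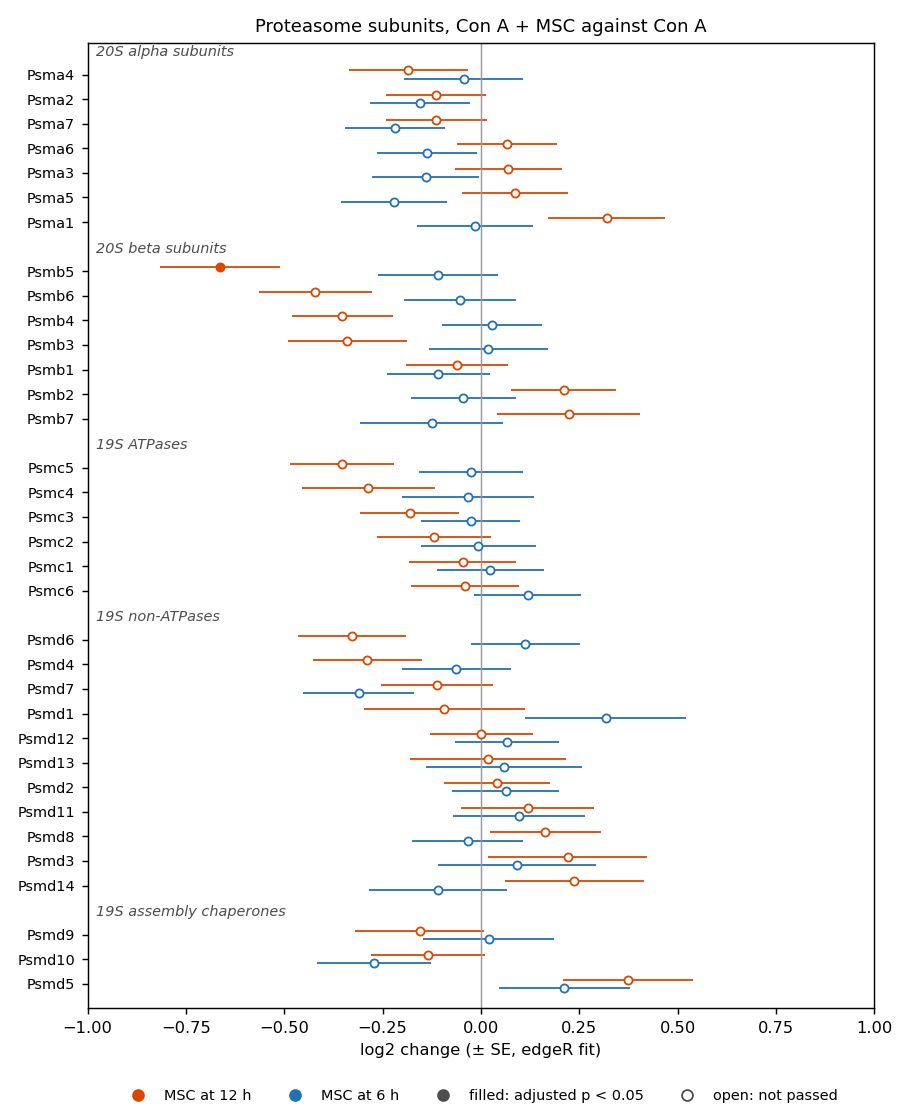
Fitted log2 change with MSC against without (± SE) of each subunit gene at 12 h (orange) and 6 h (blue), grouped by role; filled points passed an adjusted p of 0.05 and Psma8 is left out. Only Psmb5 at 12 h is filled, at -0.66, and the 6 h points lie between -0.31 and 0.32.

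The MSC effect was not shown to differ between the times for any member. The test of that difference passed for 0 of 35 members, against 0.126% of all genes (0.0630% in each direction), with 2 members, Psmb5 and Psmd6, at an unadjusted p under 0.05, and DESeq2 called 0 as well. For Psmb5 the difference was -0.55 ± 0.21 on the log2 scale (adjusted p 0.224), with an interval from 0.493-fold to 0.941-fold. For Psmd6 it was -0.44 ± 0.20 (adjusted p 0.282). Psmb7, Psma5 and Psmb4 had differences of 0.35 (adjusted p 0.532), 0.31 (0.443) and -0.38 (0.312). In 32 of 35 members the interval lay within 2-fold, so a difference of that size fell outside the interval for most of the complex.

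The 3 catalytic subunits sit in the same rings of beta subunits, and their transcripts moved apart. There were 0.666 ± 0.0836 counts of Psmb5 per count of Psmb7 in the Con A 6 h livers (SD, n = 3) and 0.670 ± 0.00998 with MSC at 6 h. At 12 h the ratio was 2.12 ± 0.276 without MSC and 1.14 ± 0.239 with MSC. Each 12 h library without MSC (1.85, 2.13 and 2.40) was above each with MSC (1.38, 1.13 and 0.902), and all 12 h libraries were above all 6 h libraries. The Psmb6 to Psmb7 ratio went from 0.911 ± 0.0579 to 2.90 ± 0.903 without MSC and from 0.955 ± 0.0118 to 1.77 ± 0.452 with MSC. For this ratio the arms overlapped at 12 h, with 1.90, 3.17 and 3.65 without MSC and 2.28, 1.64 and 1.40 with MSC. Within a library such ratios do not depend on the scaling between libraries, and they show unequal change only. The ratios were chosen with the members' changes known and carry no test.

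The counterparts that replace these subunits in the immunoproteasome, induced by interferon, are Psmb8 for Psmb5, Psmb9 for Psmb6 and Psmb10 for Psmb7. All 3 rose from 6 h to 12 h, by 0.75, 0.49 and 0.63 on the log2 scale without MSC and by 1.44, 1.03 and 0.79 with MSC. Psmb8 counts per Psmb5 count were 2.05 ± 0.686 and 1.34 ± 0.209 at 6 h without and with MSC, and 1.68 ± 0.565 and 2.57 ± 0.383 at 12 h. Libraries of the arms overlapped at both times. For Psmb9 to Psmb6 the ratios were 1.07 ± 0.189 and 0.815 ± 0.0198, and 0.753 ± 0.134 and 1.10 ± 0.278, without overlap at either time. For Psmb10 to Psmb7 they were 1.69 ± 0.314 and 1.43 ± 0.105, and 4.14 ± 1.32 and 2.96 ± 0.616, with overlap at both. The pairs thus did not share a direction between the arms at 12 h.

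The genes that build and serve the proteasome moved unevenly over time without MSC, as seen in lists that were drawn up with earlier results of these data known. Over this interval 24.4% of all genes rose and 24.8% fell, and the lists are short, so their counts are descriptions. A list of 7 assembly and related factors was tested, made of the Psmg genes, Pomp, Ecpas and Akirin2. Of these, 4 rose and none fell: Psmg4 by 1.45, Psmg3 by 1.06, Psmg1 by 0.86 and Psmg2 by 0.82 on the log2 scale. The median of the list was 0.82. The Psmg chaperones help the alpha and beta rings form. Of 10 proteasome-bound deubiquitinases and shuttle receptors, which bring or trim tagged proteins, 5 fell and 1 rose. Usp14, a deubiquitinase of the regulatory particle, fell by 0.64, and the shuttle Ubqln4 rose by 0.73. Of 5 further proteasome subunits, activators and inhibitors, Sem1, a small lid subunit, rose by 0.49, and the inhibitor Psmf1 and the activator Psme4 fell by 0.71 and 0.50. Of 6 genes for the unfoldase p97 and its cofactors, 3 rose and 2 fell.

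With MSC the lists gave the following counts over time, where 20.6% of all genes rose and 20.2% fell. Among the assembly and related factors, Psmg4, Psmg1 and Pomp rose, by 0.81, 0.54 and 0.33, and none fell. Of the deubiquitinases and shuttles, 4 of 10 fell, among them Usp14 by 0.53, and none rose. The shift of 0.54 that total counts gave all genes in this comparison is larger than the Usp14 change. No gene of these lists passed at 6 h between the arms or in the difference of the MSC effect.

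Nfe2l1, the gene of the NRF1 factor, did not pass over time in either arm (log2 change 0.13, adjusted p 0.539, without MSC and 0.35, adjusted p 0.103, with MSC). Of the 12 genes of the route that activates NRF1 or pairs with it, 2 rose and 4 fell without MSC, and 2 rose and 4 fell with MSC. Sel1l and Syvn1, parts of the ubiquitin ligase of the endoplasmic reticulum membrane, rose by 1.52 and 1.48 without MSC and by 1.66 and 1.39 with MSC. The small MAF proteins Maff and Mafk fell by 2.93 and 1.47 without MSC and by 4.32 and 1.54 with MSC, and Nfe2l2, a relative of Nfe2l1, fell by 1.83 and 1.43. Maff was also lower with MSC at 12 h (-1.54, adjusted p 0.00811). Transcript levels say nothing of the processing that activates the NRF1 protein.

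The members that rose had a shorter median span than the other members. In GENCODE M21 (GRCm38), the 9 genes that rose without MSC had a median span of 8395 bases (2492 to 25235). The 4 that fell had a median of 15674.5 bases (6514 to 56052) and the 21 others, without Psma8, of 19918 bases (6060 to 88683). The ranges overlapped. Psmb6 spans 2492 bases at chr11:70525367-70527858 on the plus strand, and Psmb5 3904 bases at chr14:54614119-54618022 on the minus strand, next to the silent Psmb11 at chr14:54621433-54629556. Psmb7, which fell, spans 56052 bases at chr2:38588036-38644087 on the minus strand, while Psmd8 and Psmd10, which also fell, span 6514 and 8300 bases. Across 34 members the Spearman correlation of the log2 change with the span was -0.40 over time without MSC, -0.40 with MSC, 0.59 for MSC at 12 h and 0.15 for MSC at 6 h. Over 13167 genes it was -0.19, -0.15, 0.21 and 0.14. The direction of the correlation with span was thus the same in the members and in all genes. These are descriptions across genes, which were measured in the same libraries and are not independent replicates. GC content of the longest coding transcript ran alongside, with correlations across the members of 0.41, 0.42, -0.41 and 0.06 in the same order, against 0.20, 0.23, -0.12 and -0.12 over all genes, opposite in sign for MSC at 6 h. The part of length and GC content in the changes was not tested.

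**Figure D5:**
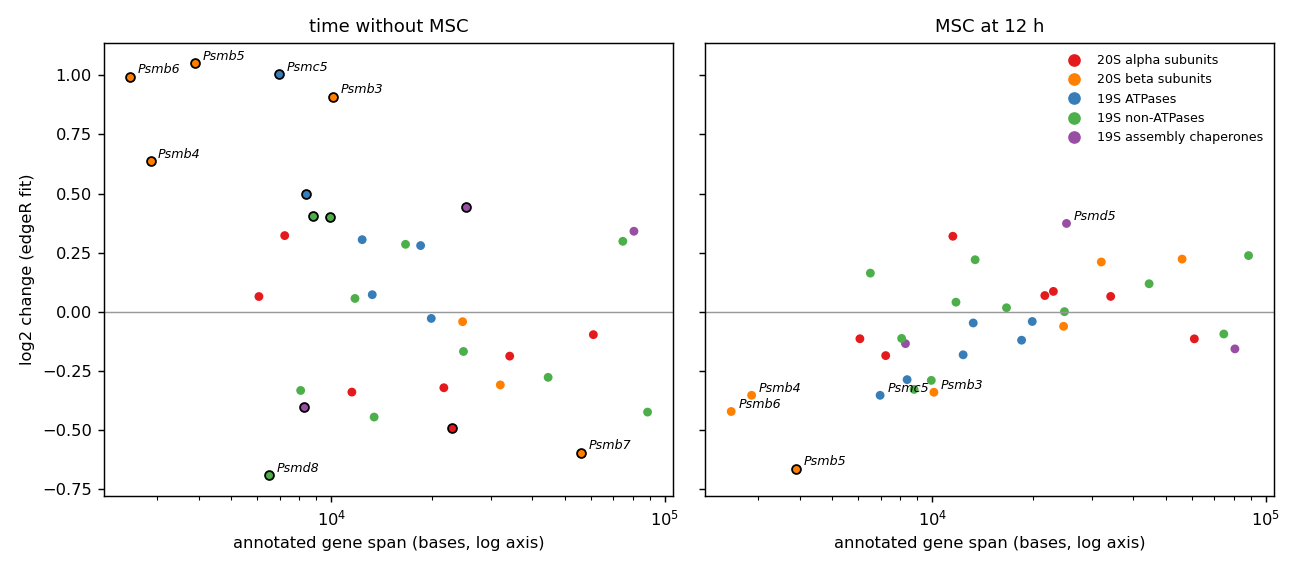
Fitted log2 change against the annotated gene span in bases (log axis) for 34 subunit genes, coloured by role, over time without MSC (left) and with MSC against without at 12 h (right); points ringed in black passed an adjusted p of 0.05. The short genes Psmb5, Psmb6 and Psmc5 stand highest on the left and below 0 on the right, while Psma7 and Psma4, of 6060 and 7241 bases, passed in neither.

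Some counts may be shared with other loci. In the same annotation 9 members share exon bases with another gene, mostly on the opposite strand, among them Psmb7 with Nek6 (405 bases, 11.8% of its exon bases), Psma5 with an antisense transcript (60 bases) and Psmd9 with a long noncoding RNA (25.5%). Psmb5 shares 109 bases with the microRNA gene Mir686 on its own strand. Whether counting used strand is not given in the sources used here, so reads of such partners cannot be told apart. By sequence, 15 members have a near copy in another annotated gene (at least 90% identity over 200 bases). Most are processed pseudogenes, with 7 for Psmb3, 2 for Psmb5, 2 for Psma5 and 1 for Psmb6. For Psmb7, Psmd1 and Psmd13 the only match (Nek6, Gm21972 and Sirt3) is a gene that shares exon bases with them, so it is not a copy elsewhere. The values of genes with copies are uncertain to the extent that reads were split among copies. Psmc5, Psmb4 and Psmd8 had neither a near copy nor shared exon bases.

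Replicates of the members agreed more closely than those of most genes. The median SD of log2 CPM within a group was 0.105, 0.0683, 0.153 and 0.150 for the members, in the order of 6 h without and with MSC and 12 h without and with MSC, against 0.307, 0.218, 0.290 and 0.245 over all genes, most of which have lower counts. Summed over the 36 genes, the level was 2408 to 2439 CPM, 2326 to 2454 CPM, 2534 to 2708 CPM and 2366 to 2566 CPM in the same order. On this scale the Con A 12 h range lay above the range of both 6 h groups, and the range with MSC at 12 h overlapped it and both 6 h ranges. As a share of all counts the 36 genes took 0.201% to 0.234%, 0.189% to 0.220%, 0.245% to 0.320% and 0.300% to 0.316%. On that scale every 12 h library lay above every 6 h library, with and without MSC. With total counts the median log2 change over time of all genes was itself 0.28 without MSC and 0.59 with MSC, beside 0.32 and 0.54 for the members. The rise in share is thus not particular to the members, and this background applies also to the shares by role. For the beta subunits alone the sum was 492 to 540 CPM, 470 to 534 CPM, 697 to 709 CPM and 569 to 622 CPM, and for the alpha subunits 568 to 572, 515 to 538, 515 to 564 and 517 to 568 CPM. On the CPM scale the 12 h libraries thus lay above the 6 h libraries for beta subunits and not for alpha subunits. As shares of all counts the beta sums were again higher in every 12 h library (0.0635% to 0.0894%) than in any 6 h library (0.0383% to 0.0479%). The alpha sums on that scale overlapped between times without MSC (0.0473% to 0.0556% and 0.0514% to 0.0650%) and did not overlap with MSC (0.0420% to 0.0482% and 0.0655% to 0.0696%).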

How the data were processed

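Liver RNA of 12 samples (4 groups of 3) was sequenced. The authors deposited whole-number read counts per gene in 4 tables, 1 per group, which were used as deposited. HISAT2 2.0.4, Bowtie2 2.2.5, StringTie 2.1.2 and GRCm39 are named in the submitters' processing notes; for the counter and its use of strand, the setting is not given in the sources used here. Columns were matched to samples by their labels. All genes were fitted in edgeR 4.0.16 (R 4.3.3) with filterByExpr, TMM scaling, 1 model of 4 group means (8 residual degrees of freedom) and two-sided quasi-likelihood tests, with Benjamini-Hochberg adjustment over the 14275 genes tested and a threshold of 0.05. Log2 changes and their standard errors come from this fit; CPM use TMM-scaled library sizes. The members and lists were chosen with earlier results of these data known. Genes were named by role: the catalytic subunits, the largest and smallest change over time without MSC in each role, members called between the arms, members called against their role's median, and for other lists the called genes with the smallest adjusted p. Some further members are named where a count or pattern turns on them, after their values were seen. Alternatives were DESeq2 1.42.0, its size factors, total counts, TMM without mitochondrial genes, no filter, a replicate block, mitochondrial share added to the model, the 2 groups alone and each library left out. Replicate libraries differed well beyond sampling noise. The test was checked on simulated counts. GENCODE M21 (GRCm38) gave positions and lengths, RefSeq (GRCm38.p6) promoter windows, and BLAST+ near copies. Results for some genes of the wider lists are not reported here. Limits from counts cover counting error only.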

Additional observations from a re-analysis of the deposited data

How the results depend on the processing

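With total counts in place of TMM the members lower at 12 h with MSC numbered 0, as did those falling over time without MSC and with MSC, 21 members rose with MSC, and the members' median log2 change was 0.19 for MSC at 12 h, 0.32 over time without MSC, 0.54 over time with MSC and 0.22 for the change of the MSC effect between times; this scaling moved the median of all genes by 0.26, 0.26, 0.54 and 0.27. Over time with MSC the shift turned all 16 members below 0 to above 0, among them Psma2 (0.48), Psmb2 (0.48) and Psmd6 (0.50), which then passed, and Psmd8 (0.0404), which no longer did. DESeq2 called 3 members lower at 12 h with MSC and 8 falling over time without MSC. With only the 2 groups fitted, 0 members were lower at 12 h with MSC, and over time without MSC 5 rose and 2 fell; this fit has fewer samples, and was not run for the difference, which needs all 4 groups. With no filter the median over time without MSC was 0.096. With mitochondrial share added to the model, 3 members fell over time with MSC. The same model over time without MSC kept 10 of 13 calls, losing Psmc4, Psmd4 and Psmd10 and gaining Psmb2, Psmd7 and Psmd13. Where not named here, the cause was not tested.

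Leaving out 1 library at a time gave 0 to 2 members lower at 12 h with MSC, 1 to 7 falling and 6 to 11 rising over time without MSC, and 0 to 1 falling and 3 to 5 rising with MSC; the medians ran from 0.0734 to 0.129 without MSC, from -0.0231 to 0.106 with MSC and from -0.0896 to 0.0364 for the difference. Without Con A 12 h replicates 2 and 3, chosen after seeing the data, 0 members were lower at 12 h with MSC and 1 fell over time without MSC, with medians of 0.0397 without MSC and 0.0373 for the difference. The fold range of levels per length moved from 41.3 to 30.9 at 12 h without MSC and from 22.2 to 19.05 with MSC when the longest transcript set the length.

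Samples that share a replicate number did not deviate together (correlations of -0.226 to 0.13), so the numbers were not taken as pairs. With the number as a replicate block, 0 members were lower at 12 h with MSC (Psmb5 -0.66, adjusted p 0.053, edgeR), 9 of the 13 calls over time without MSC were kept, and the 6 calls with MSC were all kept. In 3 libraries a group the counts limit little for these abundant genes; the spread between libraries limits the calls.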
